A study of Mus musculus with 2 samples.

Results

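Vascular endothelial growth factors (VEGFs), angiopoietins and platelet-derived growth factors (PDGFs) are secreted ligands through which a tissue signals to blood vessels and to the cells around them. The 9 ligand genes described here are Vegfa, Vegfb, Vegfc, Angpt1, Angpt2, Pdgfa, Pdgfb, Pdgfc and Pdgfd, out of 37074 gene names on the array. They were selected by family name while the results of this same comparison were already known, so their values are given as a description. All probes carrying these names were taken, 19 in total, whatever their value. In mDE6 cells given the GSK-3 inhibitor CHIR99021, Vegfa was 1.73-fold higher than in control cells, Angpt1 was 2.40-fold lower and Pdgfb 4.47-fold lower. For Vegfa, 1 of its 4 probes had a ratio of 0.879, and the mean over its probes, 1.45, did not meet the criteria. Pdgfd was well above background in control cells only, with limits of at least 4.10-fold lower at 1 uneven spot and at least 1.55-fold lower at its other probe. With another background correction, normexp, the ratio was 0.406 for Pdgfb and 0.488 for Pdgfd, and Pdgfd no longer met the criteria used here. The ratios of Vegfb, Vegfc, Angpt2, Pdgfa and Pdgfc lay between 0.881 and 1.21.

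mDE6 is a mouse odontogenic epithelial cell line. Blocking GSK-3 with CHIR99021 stabilizes β-catenin, and the comparison asks which transcripts differ after activation of this pathway. The control cells carried a DMSO label, with its percentage misprinted, while the study's methods call them untreated. The dose of CHIR99021 was 5 mM in the sample label and 5 μM in the methods, and both conditions were harvested at 6 h. Each condition had 1 single-colour array (Cy3), with no replicate, and no strain, genotype or culture replicate is given. Thus no statistical test was possible and no difference below has a replicate check. The pair of arrays shared a slide, where position and condition cannot be told apart.

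VEGF-A binds the receptors VEGFR1 (Flt1) and VEGFR2 (Kdr) and is a major stimulus of vessel growth, whereas VEGF-C acts mainly on lymphatic vessels through VEGFR3 (Flt4). Angiopoietin-1 activates the endothelial receptor TIE2 (Tek) and stabilizes vessels, and angiopoietin-2 can oppose it. PDGF-A and PDGF-C bind PDGFRα, while PDGF-D binds PDGFRβ and PDGF-B binds both. Through PDGFRβ, PDGF-B recruits pericytes to new vessels.

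The probes through which these transcripts were read are 60 bases long. Several Vegfa probes are shown first, because they did not give the same ratio. The files place them on the minus strand of chromosome 17 in mm9 and name the transcript but not the exon. In the first of these sequences, capitals mark codons for lysine or arginine, which make up 10 of the 19 codons in its reading frame.
Vegfa A_55_P2741794, chr17:46159226-46159282: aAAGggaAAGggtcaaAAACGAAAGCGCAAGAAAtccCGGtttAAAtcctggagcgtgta
Vegfa A_51_P482552, chr17:46155512-46155571, first 30 bases: actggattcgccattttcttatatctgctg
Vegfa A_52_P638895, chr17:46154387-46154446, first 30 bases: cagatcggtgacagtcactagcttgtcctg

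As background, the basic stretch under A_55_P2741794 belongs to an alternatively spliced exon for heparin binding, which only longer isoforms carry.

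The lower ligands were read at the following probes, shown because each of these genes rests on 1 or 2 spots. Angpt1 and Pdgfb lie on the minus strand of chromosome 15, and Pdgfd on the plus strand of chromosome 9.
Angpt1 A_66_P118301, chr15:42256343-42256402, first 30 bases: aatgccaacatgtgtgtagcaatttgatac
Pdgfb A_55_P2047310, chr15:79826376-79826435, first 30 bases: gttccttctgcttccttcagtttgtaaagt
Pdgfd A_52_P264790, chr9:6376926-6376985: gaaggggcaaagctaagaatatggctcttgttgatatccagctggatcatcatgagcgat
Pdgfd A_52_P636948, chr9:6378717-6378776, first 30 bases: atggctcctataaaaaacaccaaaatgtac

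No pair of probes for different ligands shared a run of 12 bases (0 pairs).

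Intensities are given below as processed signals before scaling, and ratios as CHIR99021 over control after each signal was divided by the 75th percentile of its array (487 and 469). Genes counted as lower had ratios no higher than 0.66 and Z-scores no higher than -2.0. Genes counted as higher had ratios of 1.5 or more and Z-scores of 2.0 or more. The Z-score placed a log2 ratio among the 500 probes nearest in mean signal. A gene with several probes was read at the one of highest mean signal. Of the 19 ligand probes, 13 were well above background on both arrays, 2 on the control array alone and 4 on neither.

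By these criteria 3 of the 9 ligands were lower and 1 was higher, and all 9 passed the filter on low signals. Of the lower ligands, Pdgfd passed through the control array alone, so that its direction was fixed by the filter, and 2 were lower where both arrays had to pass. Over the 18837 genes tested, 3.22% were lower and 2.63% were higher. With the ratio criterion alone the ligand counts were the same, beside 9.67% of genes lower and 8.05% higher. Since the ligands were chosen on this comparison, nothing is read from these counts. The median log2 ratio was -0.12 over the 9 ligands and 0.02 over all genes tested. By family it was 0.27 for the 3 VEGFs, -0.62 for the 2 angiopoietins and -1.17 for the 4 PDGFs. The PDGF value counts Pdgfd at its computed ratio, and over the 3 PDGFs measured on both arrays the median was -0.18.

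**Figure D1:**
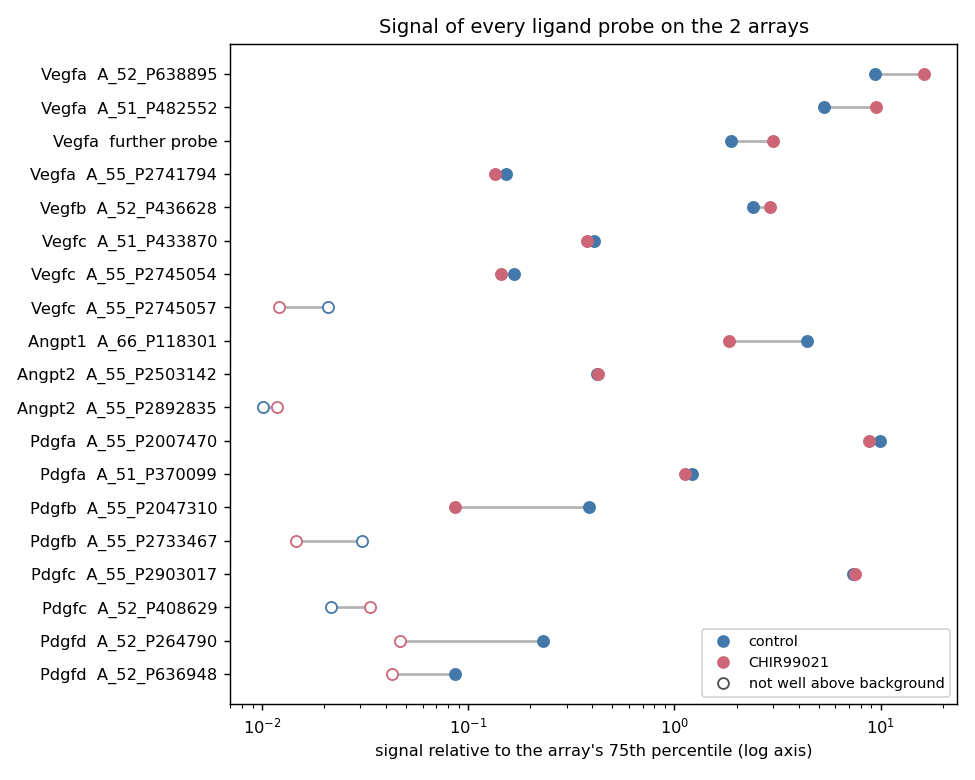
Scaled signal of all 19 ligand probes (x axis, signal over the array's 75th percentile, log axis) in control (blue) and CHIR99021-treated cells (red), with 1 array per condition and hollow points where a spot was not well above background. The pair of points is wide apart for Pdgfb, Pdgfd and Angpt1, and at 3 of 4 Vegfa probes the red point lies to the right.

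Spot-to-spot error was taken from probes printed 10 times on each array. Over 282 such probes the SD of the log2 ratio had a median of 0.03, and it was larger at dim signals. Each SD below is the median over those repeat-printed probes whose scaled signal lay within 3-fold of the ligand probe. It covers error within the pair of arrays and not between cultures. Spots flagged as outliers were left out of it, and error shared by all spots of an array is not seen.

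Among the VEGF ligands, Vegfa gave a signal of 4574 in control and 7642 in CHIR99021-treated cells at A_52_P638895. The log2 ratio was 0.79 ± 0.04 (spot-to-spot SD) and the Z-score 2.32. At A_51_P482552 the signals were 2588 and 4465, which gave 0.84 ± 0.05 on the log2 scale and a Z-score of 2.51. The treated signal was the higher of the pair at both probes, by far more than the spot-to-spot SD. The 8 spots adjacent to the first probe had log2 ratios from -1.87 to 1.66 and those adjacent to the second from -0.07 to 0.34. At a further Vegfa probe, signals of 912 and 1409 gave a log2 ratio of 0.68 ± 0.06. Its ratio of 1.60 passed the ratio criterion, but its Z-score of 1.95 lay just under 2.0, and the adjacent spots had log2 ratios from 0.04 to 1.81.

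The remaining Vegfa probe, A_55_P2741794, read 74.5 in control and 63.1 in CHIR99021-treated cells. This was a log2 ratio of -0.19 ± 0.25, within its spot-to-spot SD of no difference. The other 3 Vegfa probes spanned 0.16 on the log2 scale, and this probe lay 0.87 below the lowest of them. This probe thus differed from the other 3 in its ratio by more than the SD of 0.25. However, the highest SD among the 5 repeat-printed probes of like signal was 0.43, and the difference rests on a single dim spot. Whether its low signal plays a part was not tested.

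Vegfb, which binds VEGFR1, was read at a single probe with signals of 1170 and 1360. Its log2 ratio of 0.27 ± 0.06 was above the spot-to-spot SD and under the ratio criterion, while the 8 adjacent spots had a median of 0.33. Adjacent spots, here and for the other ligands, were taken without a background filter. Over all spots taken in that way the median log2 ratio was 0.18. Vegfc gave 199 and 177 at A_51_P433870, a log2 ratio of -0.12 ± 0.17. At A_55_P2745054 it gave 80.9 and 67.5, a ratio of 0.865, and at A_55_P2745057 both spots were near background (10.1 and 5.64). Both Vegfc ratios therefore lay near 1 at dim spots, where a small difference was not detectable.

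Of the angiopoietins, Angpt1 gave a signal of 2142 in control cells and 861 after CHIR99021. The log2 ratio was -1.26 ± 0.05 (Z-score -3.89). With 1 mean and SD over all tested probes the Z-score was -1.40 and the criteria were not met. Angpt1 was the 148th lowest of the 16886 genes measured on both arrays, and the 722nd lowest of the 18837 genes tested. The array carried a single Angpt1 probe. Its spot was in row 250, in the part of the arrays where large ratios were common. Its pixel SD was 0.0909 of the mean in control and 0.134 after CHIR99021, and the 8 adjacent spots had log2 ratios from -0.13 to 0.87. Angpt2 gave 204 and 201 at A_55_P2503142, a log2 ratio of 0.03 ± 0.17. The other Angpt2 probe was near background on both (4.92 and 5.55).

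Among the PDGF ligands, Pdgfb had signals of 187 in control and 40.4 in CHIR99021-treated cells, both well above background. The log2 ratio was -2.16 ± 0.24 (Z-score -2.96). Pdgfb was the 22nd lowest of the 16886 genes measured on both arrays, and the 455th lowest of the 18837 genes tested. The spot lay in row 85 and the 8 adjacent spots had log2 ratios from 0.19 to 0.66. The size depended on the background correction, since the normexp method gave a ratio of 0.406 in place of 0.224. With low signals raised to a floor the Z-score criterion was no longer met. The other Pdgfb probe, designed on another transcript, was near background on both (14.9 and 6.86).

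Pdgfd was well above background in control cells only. At A_52_P264790 the signals were 112 and 21.8, which gave a limit of at least 4.10-fold lower on these processed signals. The limit depended on the background correction, since normexp gave a ratio of 0.488 and the criteria were not met. On the control array the pixels of this spot were uneven, with an SD of 0.451 of the mean, above the 0.260 that 99% of passing spots in the earlier rows stayed under. In addition, 2 probes within 3 rows and columns likewise passed the background filter in control cells only, with computed ratios more than 4-fold lower. At A_52_P636948 the signals were 42.2 and 20.1, a limit of at least 1.55-fold lower at an even spot (0.185) in row 57. The Z-score there was -0.60 and the criteria were not met. Since both probes passed the filter through the control array alone, a lower direction was fixed by the filter and their shared direction supports nothing.

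Pdgfa gave signals of 4848 and 4116 at A_55_P2007470, a log2 ratio of -0.18 ± 0.04. At A_51_P370099 signals of 595 and 527 gave a log2 ratio of -0.12 ± 0.08. Both Pdgfa ratios were slightly under 1, at 0.881 and 0.919. Pdgfc gave 3565 and 3528 at A_55_P2903017, a log2 ratio of 0.04 ± 0.05, within the spot-to-spot SD of no difference. Its other probe was not well above background (10.5 and 15.6).

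**Figure D2:**
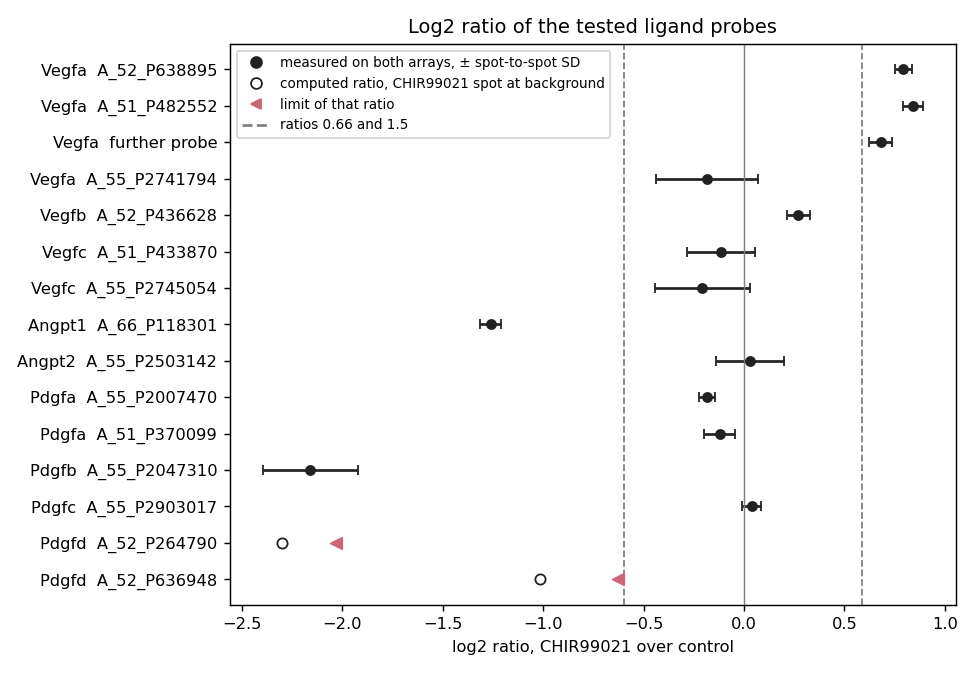
Log2 ratio of CHIR99021 over control (x axis) for the 15 ligand probes tested, with bars for the median spot-to-spot SD of repeat-printed probes of like signal, and dashed lines at ratios of 0.66 and 1.5. Hollow points are computed ratios of the 2 Pdgfd probes whose CHIR99021 spot was near background, and triangles are their limits. The Vegfa probe A_55_P2741794 stands apart from the other 3.

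Large ratios were unevenly placed on the arrays, mostly past the middle row (192 of 384), and the part this played in the ligand values was not tested. Of the 15 tested ligand probes, 5 lay in those later rows, compared with 52.1% of all tested probes. Pdgfb and the 2 brightest Vegfa probes were in the earlier rows, and Angpt1 and the brighter Pdgfd probe in the later ones. In the earlier rows alone Vegfa and Pdgfb still met the criteria, and in the later rows alone Angpt1 did. Vegfa did not meet them in the later rows alone (Z-score 1.99). Pdgfd met them in neither part (Z-scores -1.45 in the earlier and -1.52 in the later rows).

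**Figure D3:**
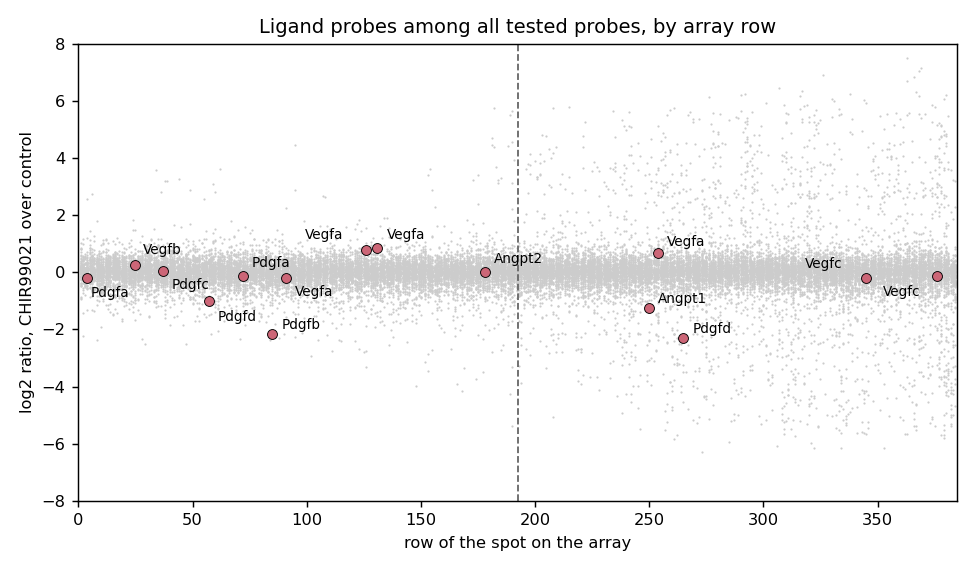
Log2 ratio of CHIR99021 over control (y axis) against the array row of the spot (x axis) for all 28066 tested probes (grey) and the 15 tested ligand probes (red, named), with a dashed line past the middle row. Grey points spread widely in the later rows, and Pdgfb lies in the earlier rows below most of them.

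Direction was kept under the 7 other scalings and background corrections for the called ligands with both signals well above background, with ratios from 1.63 to 1.77 for Vegfa, 0.402 to 0.426 for Angpt1 and 0.216 to 0.406 for Pdgfb. For Pdgfd, whose direction the filter fixed, the computed ratios ran from 0.195 to 0.488. Vegfb, Vegfc and Pdgfa also kept their side of 1 under these. The ratios of Angpt2 (0.984 to 1.04) and Pdgfc (0.981 to 1.05) crossed 1. Angpt1 and Pdgfb have 1 tested probe each, so the rules for several probes could not change them.

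**Figure D4:**
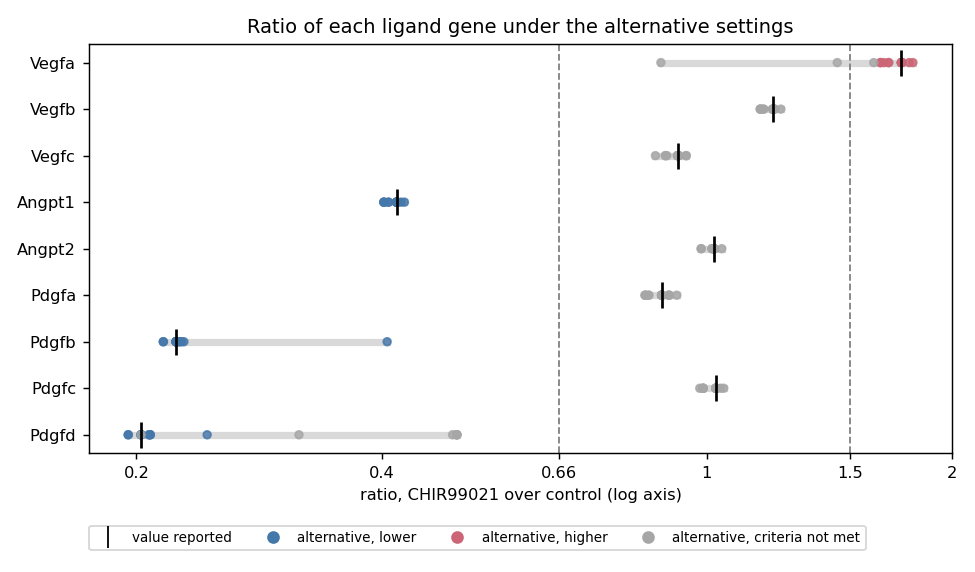
Ratio of CHIR99021 over control (x axis, log axis) for each ligand gene as reported (black bar) and under each alternative with a value for that gene (points, coloured by whether the criteria were met), with dashed lines at 0.66 and 1.5. Angpt1 ranges from 0.402 to 0.426, whereas Vegfa reaches 0.879 at its lowest probe and Pdgfd 0.494 at its other probe.

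The cells' own receptors for these ligands were examined next, along with related genes, in lists likewise drawn up with earlier results known. In lists this short and so chosen, nothing is read from the counts. Of 10 receptors and co-receptors, 6 were well above background, and 0 of the 6 met the criteria in either direction (median log2 ratio -0.27), beside 3.22% lower and 2.63% higher over all genes. The ratio was 1.08 for Flt1, 0.785 for Pdgfra and 0.684 for Pdgfrb, whose signals were 1811 and 1194. The neuropilins, co-receptors for VEGF and semaphorins, had ratios of 0.786 (Nrp1) and 1.28 (Nrp2). For Nrp1 the 5 tested probes ranged from 0.339 to 1.16. The PDGF receptor-like gene Pdgfrl had a ratio of 0.880. Kdr, Flt4, Tek and Tie1, which mark endothelium, failed the background filter on both arrays, so the main receptors for angiopoietin-1 and VEGF-C were not detectable in these cells.

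Of the other ligands of these families, 5 of 9 were tested, of which 1 was lower, 1 was higher and 3 were neither (median log2 ratio -0.14), with the same shares over all genes (3.22% and 2.63%). Angptl4, a secreted inhibitor of lipoprotein lipase, had signals of 1122 and 609, a ratio of 0.563. Angpt4, a further TIE2 ligand, had dim signals of 66.1 and 188, a ratio of 2.96 that was 1.98 with normexp. Figf, the array's name for the gene of VEGF-D, had 5020 and 3454, a ratio of 0.714 that did not meet the criteria. It was named after its values were seen. The proteases and helpers that activate or release these ligands, such as plasminogen activators and furin, held 10 tested genes of 12. Of these, 0 met the criteria (3.22% and 2.63% over all genes), with ratios from 0.838 to 1.35.

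Oxygen sensing controls Vegfa in many cells through hypoxia-inducible factors, which prolyl hydroxylases mark for destruction. Of 9 such genes 8 were tested, and 3 were higher, 1 was lower and 4 were neither (median log2 ratio 0.33), beside 2.63% higher and 3.22% lower over all genes tested. This list too was drawn up with earlier results known, so nothing is read from its counts, and a link to Vegfa was not tested. Hif1a, the HIF-1 alpha subunit, had signals of 16505 and 25342, a ratio of 1.59. Its 3 probes had ratios between 1.59 and 2.59, and only 1 of them met both criteria. Under other scalings the reported Hif1a ratio was 1.49 to 1.63, and so fell just under 1.5 at the lowest. The prolyl hydroxylase genes Egln1 and Egln3 had ratios of 1.86 and 1.82. Epas1, the HIF-2 alpha subunit, gave 503 and 203, a ratio of 0.418. The spots of Hif1a, Egln1 and Egln3 were in the later rows and that of Epas1 in the earlier ones.

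**Figure D5:**
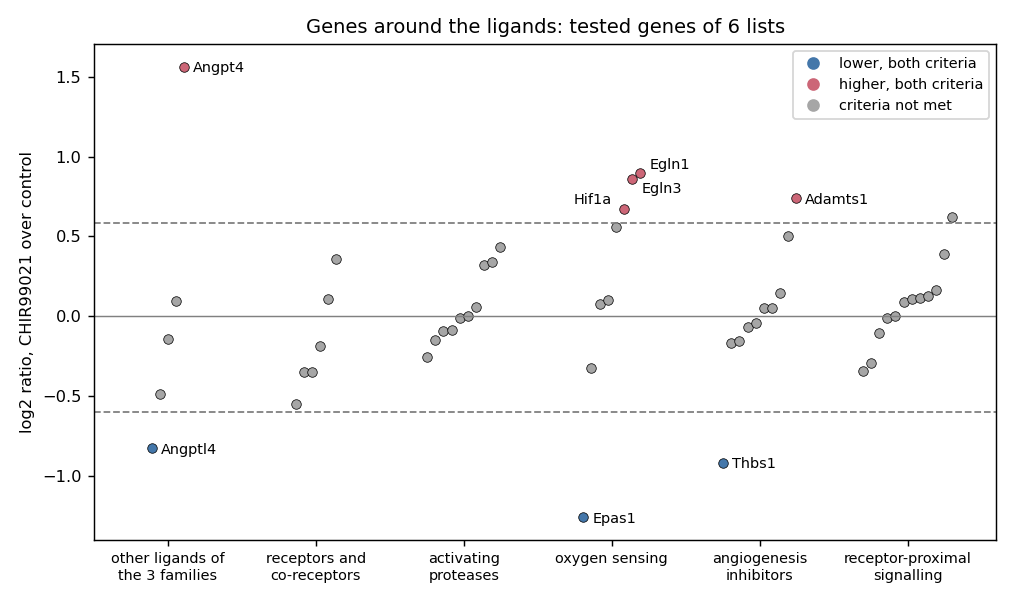
Log2 ratio of CHIR99021 over control (y axis) for the tested genes of 6 lists around the ligands (x axis), each point 1 gene at its probe of highest mean signal, with dashed lines at ratios of 0.66 and 1.5. Coloured and named genes met both criteria, and of the receptors and activating proteases 0 did.

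Upstream sequence from RefSeq (GRCm38.p6) was examined for 6 of the 9 ligands, with 8 start sites, and Angpt1, Angpt2 and Pdgfb were not analysed here. In the 250 bases before each start, on both strands, CTTTGAT and CTTTGAA, cores of the TCF/LEF motif, were found in 0 of the 8. They occur in 3.21% and 4.46% of the 32851 promoters of that length. ACGTG, the core of the hypoxia response element, was present in 1 of the 8, a Vegfa window at chr17:46025164-46025413, against 16.6% of all promoters. On the minus strand that window lies downstream of the other Vegfa start, whose own window (chr17:46032378-46032627) held 0. Whether the downstream window acts as a promoter was not tested.

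The treatment and the label of the cells were checked in the same arrays. Lef1, a target of β-catenin, had signals of 239 in control and 690 in CHIR99021-treated cells, a log2 ratio of 1.58, and a Z-score of 4.05. Axin2, another target, was well above background after CHIR99021 only (7.23 and 37.9), with a limit of at least 1.66-fold higher and a Z-score of 0.91, and did not meet the criteria. Of the 10 epithelial markers, Trp63 (2306 and 2896) and Krt14 (dim, 48.5 and 54.6) were among those well above background on both arrays. Another tested Trp63 probe had a ratio of 0.0751. Cdh1, Epcam, Krt8, Krt19 and Shh were well above background on neither array. Krt5 was above background after CHIR99021 only (5.51 and 165), so that its direction was fixed by the filter. Its computed ratio met the higher criteria and ran from 3.19 to 31.8 over the scalings and background corrections. Krt18 was above background in control cells only. Of the 8 fibroblast and dental mesenchyme markers, 7 were well above background on both arrays, Col1a1 (122712 and 116216) and Twist1 (647 and 967) among them. The epithelial label is thus only partly borne out.

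Markers of other cell types were read as well. Of 10 endothelial markers 3 were tested, and Cdh5, Vwf, Emcn and Cldn5 failed the background filter on both arrays. Egfl7 was above background on both arrays, with a ratio of 0.824. Esam was above background after CHIR99021 only (7.46 and 63.8) and Pecam1 in control cells only (29.9 and 19.2), and 0 of the 3 met both criteria. Of 7 pericyte and mural markers 2 were tested, Acta2 (0.832) and Pdgfrb (0.684), and Cspg4 and Rgs5 were not well above background. Of 4 macrophage markers 3 were tested, with ratios from 1.01 to 1.24. Their part in the ligand values was not tested, and in such bulk RNA fewer cells of a type and less RNA per cell cannot be told apart.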

How the data were processed

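Total RNA of mDE6 cells was amplified, labelled with Cy3 and hybridised to Agilent mouse arrays (mm9 per the file headers, while the study's methods name a human array). The deposited files hold spot intensity that the authors obtained after background subtraction in Feature Extraction (10.7.1.1 per the file headers, 9.5.1.1 per the submitters' processing notes), without normalization between arrays, and a table of normalized intensities used as an alternative. Each array held 59305 spots besides controls, of which 49.8% (control) and 48.3% (CHIR99021) were well above background and 0 were saturated.

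Outlier spots were dropped, spots of 1 probe averaged, and log2 intensity set relative to the array's 75th percentile. A probe was tested if either array had it well above background (28066). Where the other array fell short, the ratio is a limit, taken with that array's signal raised to the lowest one that passed there. Z-scores are undefined in the methods and were built as stated in the report. The number of arrays limits the precision. Some items, such as a marker gene and a probe sequence, are not reported here. Python 3.11.15, numpy 2.4.6, pandas 2.3.3, matplotlib 3.10.9 and limma 3.58.1 (R 4.3.3) were used, and the calls were tested on simulated data.

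The ligands and all lists were chosen with earlier results of these data known. Named were the 9 ligands with all their probes, up to 4 genes per list and direction that met both criteria, receptors well above background, up to 4 examples per marker list, and Lef1 and Axin2. Further markers that were near background or passed on 1 array were named after their values were seen. Alternatives changed the scaling, background correction (normexp, offset 50), filter, floor, probe rule, Z-score, array rows and uneven spots.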

Additional observations from a re-analysis of the deposited data

How the results depend on the processing

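The median log2 ratio of the 9 ligands, -0.12 as reported, was -0.0842 with median scaling, -0.17 without scaling, -0.17 with the percentile over detected probes, -0.0829 with normexp, -0.0429 for the 8 ligands measured on both arrays, -0.15 when a gene's probes were averaged and -0.19 at the lowest-ratio probe. It was 0.0299 over 7 ligands in the earlier rows and -0.69 over 4 in the later rows, with Vegfa and Pdgfd in both. Without a filter on dim probes the median over all genes moved to 0.18. Vegfa reversed to a ratio of 0.879 at its probe of lowest ratio, so that 0 ligands were higher there, as also with the mean over probes (1.45), both by ratio alone and with the Z-score. With 1 mean and SD for the Z-score, and in the later rows alone, 0 ligands were higher by ratio and Z-score. In the earlier rows 1 ligand was lower, and in the later rows 1.

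Pdgfd no longer met the criteria with normexp, the mean over probes, its probe of highest ratio, earlier or later rows alone, or without uneven spots, or at its other probe, an alternative chosen after seeing the data (ratios up to 0.494). Angpt1 missed them with 1 mean and SD, and Pdgfb with low signals at the floor. The cause of these changes was not tested, beyond the choice of spot. No paired analysis was possible because neither condition has more than a single array. For Pdgfd the CHIR99021 signal did not pass the background filter, so its ratios are limits or computed values.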

Other observations

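Of 10 secreted inhibitors of angiogenesis, all were tested, and 1 was lower, 1 was higher and 8 were neither (median log2 ratio 0.01), beside 3.22% lower and 2.63% higher over all genes tested. Thbs1, which encodes thrombospondin-1, had signals of 10004 in control and 5101 in CHIR99021-treated cells, a ratio of 0.529, and both of its probes met the lower criteria (0.457 and 0.529). Adamts1, a secreted protease that can bind VEGF-A, had signals of 2716 and 4375, a ratio of 1.67. Both kept their direction and stayed past the ratio criterion under the other scalings, at 0.495 to 0.541 for Thbs1 and 1.60 to 1.71 for Adamts1. The 12 signalling genes just beneath the receptors were all tested and 0 met both criteria (median log2 ratio 0.10), which is near those shares. Of these, 1 passed the ratio criterion alone, beside 9.67% lower and 8.05% higher over all genes. This was the adaptor gene Crk at 1.54, with dim signals of 61.2 and 91.0, named after its values were seen.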
